A study of Homo sapiens with 6 samples.

Results

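The 9 genes described here encode the retinoic acid receptors RARA, RARB and RARG, the retinoid X receptors RXRA, RXRB and RXRG, the cellular retinoic acid binding proteins CRABP1 and CRABP2, and STRA6, the cell surface receptor that takes up retinol. They were chosen by name, as a family, and all 9 were found among the 23284 genes of the authors' deposited table. RNA came from WA01, an established human embryonic stem cell line of wildtype genotype, in 3 groups of 2 libraries each. ES is the undifferentiated stem cells (day 0), preNC the cells called pre-neural crest (day 3), and NC those called neural crest (day 5). The labels' protocols describe, for every library, plating at 20000 cells per cm2 on Matrigel with CHIR99021 at 3 µM, which switches on WNT signalling by blocking the kinase GSK3. The medium held B27 supplement (2%) and bovine serum albumin (0.5%), and the ROCK inhibitor Y-27632 was present at the start at 10 µM. The same text stands for the day 0 libraries, so it does not settle whether those stem cells had met these additions. Comparisons with day 0 may thus combine time with the start of the additions, which cannot be told apart here. No retinoid is named among the additions, and the labels do not say whether the B27 supplement was the kind with or without vitamin A. All groups derive from 1 cell line, and the labels do not give the cultures behind the libraries of a group, so the deposited p-values can reflect technical spread alone.

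Retinol enters cells through STRA6 and is oxidised to retinoic acid, which the CRABP proteins carry in the cytoplasm. CRABP2 is known for delivering it to the nucleus, and CRABP1 is linked to its handling and breakdown in the cytoplasm. In the nucleus an RAR binds retinoic acid and acts on DNA as a heterodimer with an RXR, most often at direct repeats of a short core site. In the vertebrate embryo retinoic acid patterns the hindbrain and the neural crest that leaves it, and RARB is itself a classical retinoic acid target.

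Expression is given as FPKM, fragments per length of transcript and size of library, once for each gene in each group, both libraries being combined. There was thus no spread between replicates to set beside a level, and the depth of the libraries is unknown. Changes are log2 ratios of group FPKM. Each ± gives a standard error worked back from the deposited test statistic (called implied here), which is a description, since it does not always match the deposited q. Called means that this q is below 0.05. In bulk RNA, fewer cells that express a gene and less RNA per cell cannot be told apart. Positions are on hg19 unless another build is named.

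Of the 9 genes, all were tested in each of the 3 comparisons. From day 0 to day 3, 5 were called higher (RARB, RXRA, RXRG, CRABP2 and STRA6), where 8.96% of all 16231 tested genes were called higher, and 0 were called lower, where 11.6% of all were. From day 3 to day 5, 1 was called higher (CRABP1), against 5.93% of 15932 tested genes, and 2 were called lower (RARB and RARG), against 6.68%. From day 0 to day 5, 5 were called higher (RARB, RXRG, CRABP1, CRABP2 and STRA6), against 12.2% of 16409 tested genes, and 1 was called lower (RARG), against 14.7%. RARA and RXRB were called in none of the 3 comparisons. The 3 comparisons share groups, so a gene's calls in them are not independent of each other. On the scale of log2 of FPKM plus 1, the median change of the 9 genes was 0.65 to day 3, where that of all tested genes was 0.03. It was -0.24 from day 3 to day 5 (all tested genes, -0.04) and 0.47 from day 0 to day 5 (all tested genes, -0.01).

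**Figure D1:**
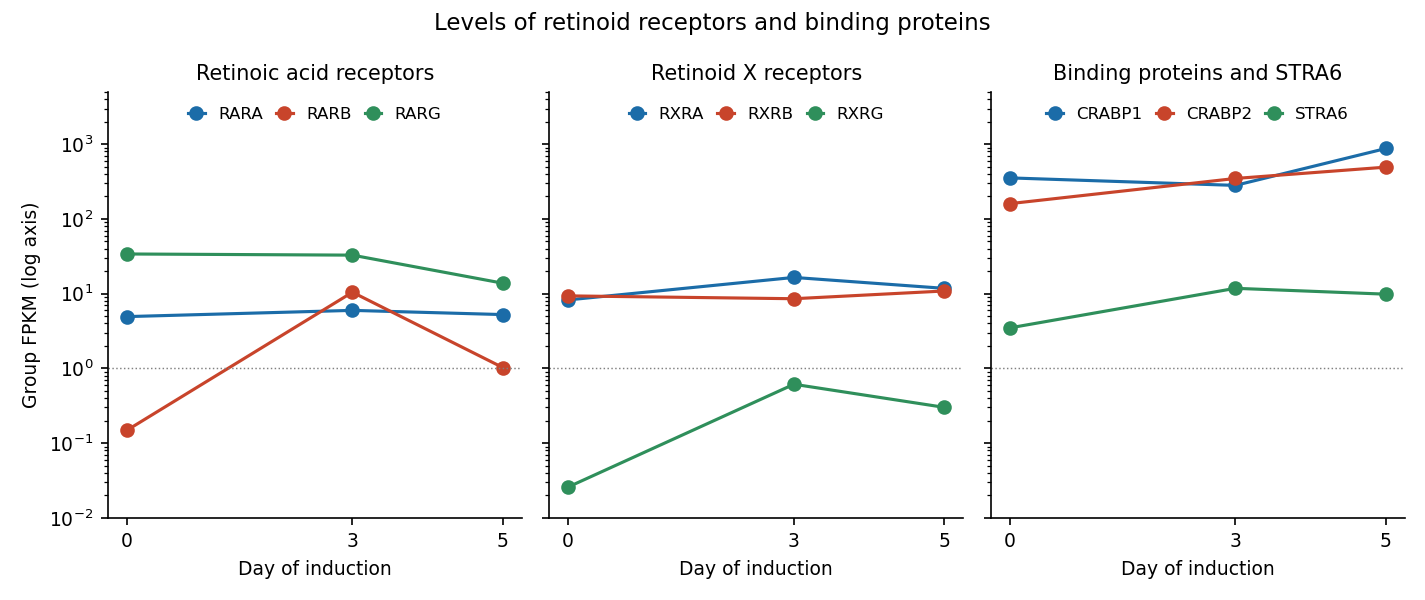
Group FPKM (log axis) of the 9 genes on days 0, 3 and 5 of induction, 1 point for each gene in a group, both libraries combined, and no error bar; the dotted line marks an FPKM of 1. RARB peaks on day 3 at 10.5, RARG ends lower at 13.8, and CRABP1 and CRABP2 lie above all other members on each day.

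RARB, the receptor gene that in many cell types responds to retinoic acid itself (chromosome 3, 25469754 to 25639422), had the widest swing of the 9 genes. Its FPKM over days 0, 3 and 5 was 0.148, 10.5 and 1.02. It was thus near absence in the stem cells, at a middling level among expressed genes on day 3 (above 47.9% of the genes at an FPKM of at least 1), and close to the bottom of them on day 5. The rise to day 3 was 70.7-fold (log2 6.14 ± 0.64), the 47th largest of 901 called rises on the scale of log2 of FPKM plus 1, among genes that reached an FPKM of 5. The fall to day 5 was 10.2-fold (log2 -3.35 ± 0.61), again in place 47, of 645 called falls. Day 5 remained above day 0 by 2.79 ± 0.68 on the log2 scale. All 3 differences carry q = 0.000596 per the authors' deposited table, the smallest value there. The day 0 value is low, so the size of the fold to day 3 depends on it: with 1 added to both values the log2 change was 3.32.

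RARG, the receptor known for its high level in early embryonic cells and skin (chromosome 12, 53604350 to 53626040), was the most abundant RAR in every group. Its FPKM over the days was 34.0, 32.8 and 13.8. The first step was not called (log2 -0.05 ± 0.39, with an interval of -0.81 to 0.71 at 95%), and its sign turned under another scaling of the table (0.018 on log2). The fall came in the second step, by 2.38-fold (log2 -1.25 ± 0.37; q = 0.000596 per the authors' deposited table). RARA, the widely expressed receptor (chromosome 17, 38465423 to 38513895), stood at 4.93, 5.98 and 5.25 on days 0, 3 and 5. No step of RARA was called, and its 95% intervals allow a log2 change of -0.64 to 1.20 to day 3 and of -0.88 to 1.06 from day 0 to day 5.

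These changes altered the make-up of the RAR transcripts. Over days 0, 3 and 5 the FPKM summed over the 3 receptors was 39.1, 49.2 and 20.1. RARG held 87.0%, 66.6% and 68.7% of that sum. RARB held 0.378%, 21.2% and 5.10% on the same days, and RARA 12.6%, 12.1% and 26.2%. RARB was thus above RARA on day 3 and below it in both other groups. Shares have no error here, because each group is a single combined value.

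The RXRs are the common partners of the RARs and of several other nuclear receptors. RXRA (chromosome 9, 137218316 to 137332431) went from 8.25 on day 0 to 16.5 on day 3 and 11.8 on day 5. The first step was called (log2 1.00 ± 0.40; q = 0.00200 per the authors' deposited table), and neither the step to day 5 (log2 -0.49 ± 0.35) nor the whole course (log2 0.51 ± 0.42) was. The call was lost when p was recomputed from the test statistic under a normal distribution. RXRB, the ubiquitous member of the family, stood at 9.34, 8.56 and 10.9, and its largest log2 difference between groups was 0.34 ± 0.38. The table places RXRB on an alternative haplotype contig of the major histocompatibility region on chromosome 6, and how fragments that match several copies of the region were counted is not given in the sources used here. No other gene of the table overlapped the locus of a member except MIR4669 within that of RXRA, which was listed at 0 on all days. Overlaps were sought only on the same chromosome or contig, so for RXRB genes placed on chromosome 6 itself or on another contig were not covered.

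RXRG, the RXR of narrow expression known from muscle and parts of the nervous system (chromosome 1, 165370159 to 165414592), stayed under an FPKM of 1 throughout, at 0.0258, 0.613 and 0.301. It was called higher on day 3 (log2 4.57 ± 2.49) and on day 5 (log2 3.54 ± 2.51) than on day 0, at q = 0.0338 and q = 0.0419 per the authors' deposited table. Those implied errors are wide enough that the interval to day 3, from -0.32 to 9.46, includes 0, and both calls were lost when p was recomputed from the test statistic or q was held to 0.01. RXRG made up 0.147% of the summed RXR FPKM on day 0 and 2.39% on day 3. RXRA and RXRB shared the rest, RXRA with 46.8%, 64.3% and 51.3% on days 0, 3 and 5. The summed RXR FPKM was 17.6, 25.7 and 22.9, so summed RAR over summed RXR went from 2.22 on day 0 to 1.92 on day 3 and 0.875 on day 5.

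**Figure D2:**
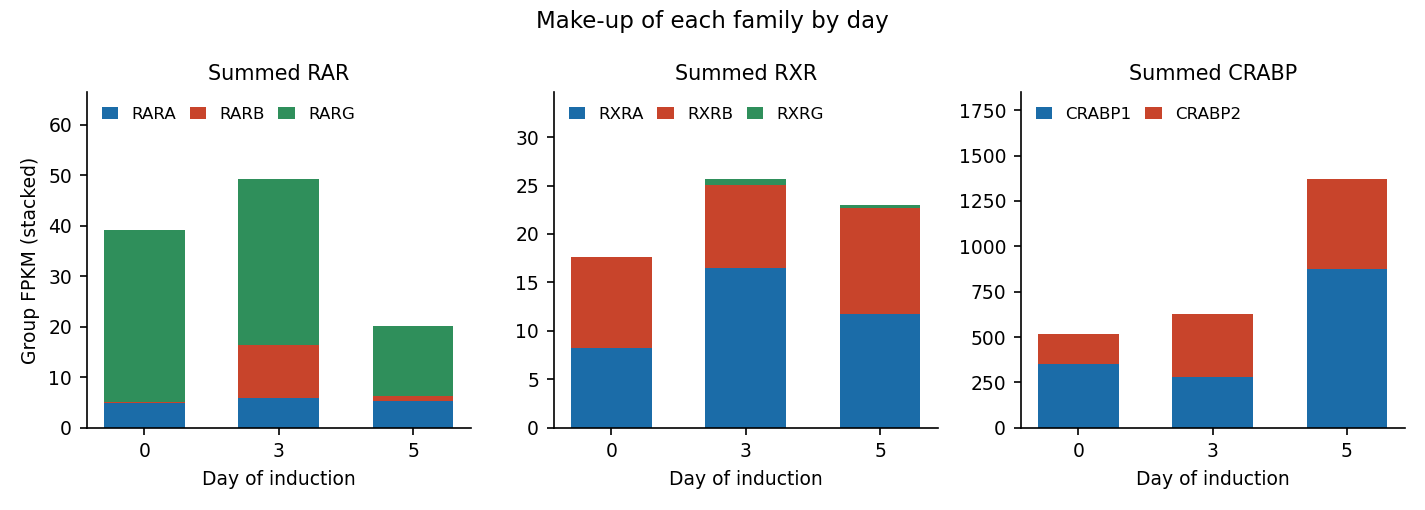
Stacked group FPKM of the RAR, RXR and CRABP genes on days 0, 3 and 5 of induction, with a separate scale for each family and no error bars. RARB is a visible share of the RAR bar on day 3 (21.2%), and the summed CRABP bar reaches 1370 on day 5.

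CRABP1 and CRABP2 were far more abundant than any receptor. CRABP1, a gene known to mark migrating neural crest in vertebrate embryos (chromosome 15, 78632666 to 78640572), went over the days from 354 to 281 and 877. Its step to day 3 was not called (log2 -0.33 ± 0.25, with a 95% interval of -0.81 to 0.15), and it rose 3.12-fold from day 3 to day 5 (log2 1.64 ± 0.26; q = 0.000596 per the authors' deposited table). On day 5 it ranked 127 by FPKM among all 23284 genes, from 288 on day 0 and 353 on day 3. CRABP2 (chromosome 1, 156669400 to 156675608) went from 160.2 on day 0 to 348 on day 3 and 494 on day 5. Its step to day 3 was called (log2 1.12 ± 0.39; q = 0.00110 per the authors' deposited table), and its step to day 5 was not (log2 0.50 ± 0.38). Over the whole course CRABP1 rose 2.47-fold and CRABP2 3.08-fold, both called.

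The order of these 2 genes turned over and back. CRABP1 over CRABP2 was 2.21 on day 0, 0.808 on day 3 and 1.78 on day 5. Their summed FPKM was 515 on day 0, 629 on day 3 and 1370 on day 5. Set against the summed RAR FPKM, that sum was 13.2, 12.8 and 68.3 times as high on days 0, 3 and 5, with CRABP1 called higher and RARG and RARB called lower between the last of these days. Whether the changes of CRABP1 and CRABP2 differ from each other was not tested, since the table tests each gene on its own.

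STRA6, which takes up retinol from its plasma carrier RBP4 (chromosome 15, 74471808 to 74502046), stood at 3.48, 11.8 and 9.85 (FPKM, days 0, 3 and 5). The gene rose 3.39-fold by day 3 (log2 1.76 ± 0.49; q = 0.000596 per the authors' deposited table) and was not called between day 3 and day 5 (log2 -0.26 ± 0.40). Day 5 stayed above day 0, 2.83-fold (log2 1.50 ± 0.51). STRA6 lay above 21.7% of genes at an FPKM of at least 1 on day 0 and above 51.5% of them on day 3.

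**Figure D3:**
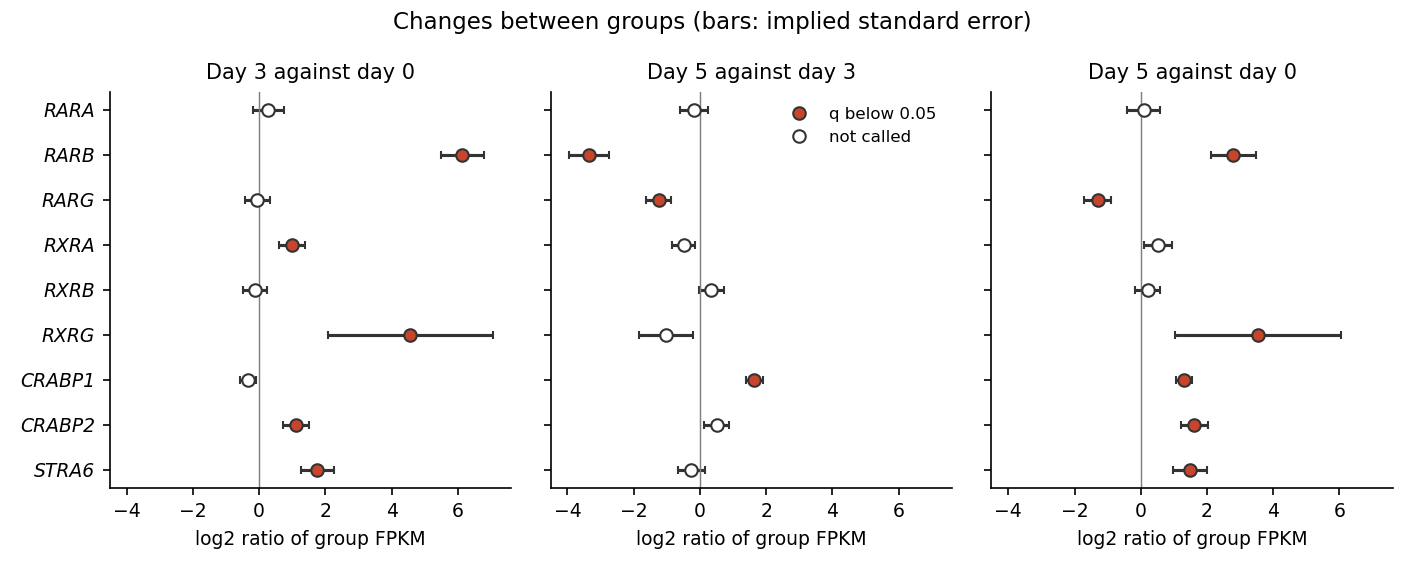
Log2 ratio of group FPKM for each member in the 3 comparisons, bars showing the implied standard error and filled points the called genes of the authors' deposited table. RARB lies at 6.14 to day 3 and -3.35 from day 3 to day 5, and the bars of RXRG, 2.49 and 2.51 from day 0, are the widest.

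In order of FPKM, the stem cells had CRABP1, CRABP2, RARG, RXRB, RXRA, RARA, STRA6, RARB and RXRG. On day 3 the order was CRABP2, CRABP1, RARG, RXRA, STRA6, RARB, RXRB, RARA and RXRG. Day 5 had CRABP1, CRABP2, RARG, RXRA, RXRB, STRA6, RARA, RARB and RXRG. RARG, RXRA, RXRB and STRA6 lay within 9.85 to 13.8 on day 5, and without a value per library it cannot be said which of these neighbours differ. The median FPKM of genes at an FPKM of at least 1 was 10.5, 11.2 and 10.8 on the 3 days, so the receptors other than RARG were mostly at or below the middle of expressed genes.

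For each called member that reached an FPKM of 5, the 2 genes with the nearest pattern were sought among 10531 others, by the distance between log2 of FPKM plus 1 in the 3 groups, each centred on its own mean. With 3 groups such a likeness is weak and is given as a description. RARB was nearest to CDH23 (1.05, 15.8 and 1.70 on days 0, 3 and 5; distance 0.302) and PRMT8 (0.808, 12.3 and 2.04). These genes encode a cadherin and an arginine methyltransferase, and both share the day 3 peak. RARG was nearest to SRM, the spermidine synthase gene (126, 126 and 53.5), and DIRAS1. RXRA was nearest to IGSF9 (10.2, 19.9 and 14.4) and C5orf30. The nearest patterns to CRABP1 were HS6ST2, a heparan sulfate sulfotransferase gene, and TAGLN, which encodes an actin-binding protein of smooth muscle and stood at a like level (298, 248 and 737). CRABP2 was nearest to ODF2 (6.72, 15.6 and 22.6) and RSPH9. The nearest to STRA6 were TGFBR1, a TGF-beta receptor gene (12.1, 36.5 and 31.0), and ADCYAP1R1.

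Because RARB is a known retinoic acid target, the promoter windows of the members were searched for the direct repeats that RAR and RXR heterodimers bind. The windows come from RefSeq (GRCh38.p14) and span 250 bases before to 50 bases after each annotated start, with several windows for genes with several starts. All 9 genes matched by symbol, with 20 windows. The core site was AGGTCA, its variant GGGTCA, the form AGTTCA or the form GGTTCA, and a repeat was any 2 of these in the same orientation with 1, 2 or 5 bases between them, on either strand. A repeat with spacing 5 was present in 31 of all 35116 windows (0.0883%), with spacing 1 in 46 (0.131%) and with spacing 2 in 14 (0.0399%). Among the members, 1 window held a repeat, with spacing 5, and it belongs to RARB. The search was made because RARB is a known target, so this hit is a description and not a test. It also depends on the forms searched: with AGGTCA and GGTTCA alone, 0 members held a repeat at any of these spacings. Single core sites were common, in 38.6% of all windows and in 9 of the members' 20.

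The window with the repeat is that of the RARB start at chr3:25428263 in GRCh38.p14, and 3 other RARB windows held none. From this start to the end of the gene RefSeq has 169670 bases, and the RARB locus of the deposited table is 169669 bases wide, so the deposited gene model is about as long as one that begins here. Outside the members, CYP26A1, the retinoic acid-degrading enzyme gene, was the other gene of the pathway lists with such a repeat. The 250 bases before both starts are shown because these genes had the same order of calls over the first and second steps. They are RARB at chr3:25428013-25428262 (plus strand) and CYP26A1 at chr10:93073643-93073892 (plus strand), 5′ to 3′, with the core sites of the repeat in capitals. In CYP26A1 the repeat lies on the opposite strand, so the capitals show its reverse complement.
RARB: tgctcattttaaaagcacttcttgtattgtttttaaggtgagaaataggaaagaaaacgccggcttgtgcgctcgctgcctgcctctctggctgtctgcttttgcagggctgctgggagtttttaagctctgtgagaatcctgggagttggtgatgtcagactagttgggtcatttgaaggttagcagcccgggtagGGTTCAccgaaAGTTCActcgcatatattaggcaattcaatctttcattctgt
CYP26A1: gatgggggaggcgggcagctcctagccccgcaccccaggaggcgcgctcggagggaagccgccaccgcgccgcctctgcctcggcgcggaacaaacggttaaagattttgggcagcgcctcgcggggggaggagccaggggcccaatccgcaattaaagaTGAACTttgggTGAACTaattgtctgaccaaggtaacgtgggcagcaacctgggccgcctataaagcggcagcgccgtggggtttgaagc
The RARB repeat spans bases -53 to -37 relative to the start and the CYP26A1 repeat bases -90 to -74. Read on its own strand, each repeat has 17 bases.
RARB repeat: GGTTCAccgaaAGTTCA
CYP26A1 repeat: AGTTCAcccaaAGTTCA
They are identical at 15 of the 17 positions and differ by G1A and G9C, with the RARB base named before the CYP26A1 base and positions counted from 1 at the 5′ end of the repeat. Both repeats were picked by the same core site forms, which share most of their bases, so much of this identity was set by the search. The bases between the core sites were not restricted, and G9C lies among them, while G1A lies in a core site. Whether the repeats are more alike than others found by the same search was not tested. A match of letters is a description and does not show that a receptor was bound in these cells.

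CYP26A1 went from 20.8 on day 0 to 59.9 on day 3 and 3.65 on day 5. It was called higher on day 3 than on day 0 and lower on day 5 than on day 3, as RARB was, but day 5 lay below day 0 for CYP26A1 and above it for RARB. The 31 windows with a spacing-5 repeat belong to 29 gene symbols, of which 15 are in the deposited table and 9 were tested in each comparison. To day 3, RARB and CYP26A1 were called higher and 0 lower. To day 5, 3 were called lower, namely these 2 and BATF2 (0.746 to 0.251), and 0 higher. Of all tested genes, 8.96% were called higher and 11.6% lower in the first step. In the second step these shares were 5.93% and 6.68%. The median change of the 9 on log2 of FPKM plus 1 was 0.01 in the first step and -0.15 in the second, where all tested genes had 0.03 and -0.04. Genes such as PANK2 (20.2, 19.2 and 18.1) and PHF8 (6.69, 7.75 and 10.1) carry the repeat and were called in no comparison.

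**Figure D4:**
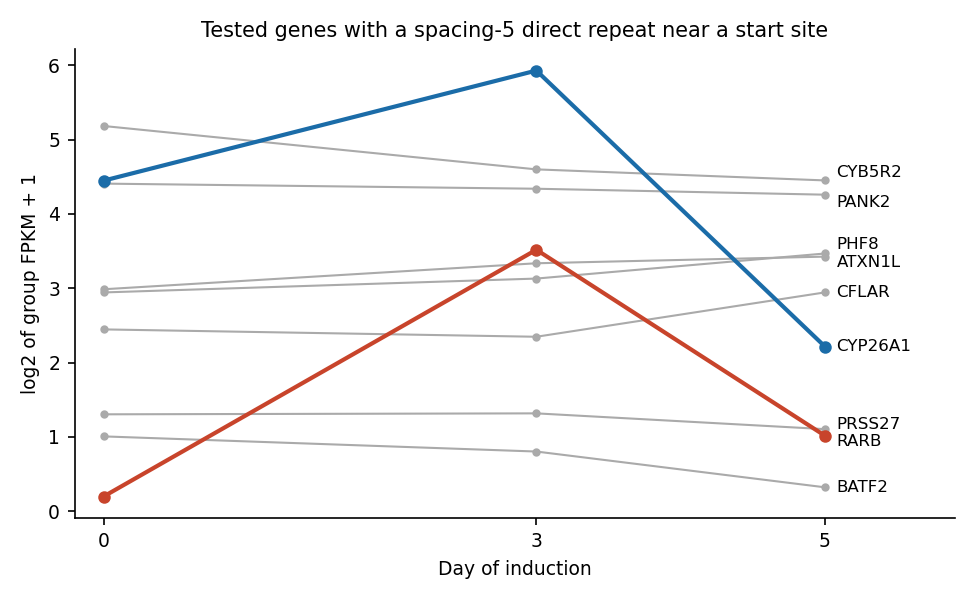
Log2 of group FPKM plus 1 on days 0, 3 and 5 for the 9 tested genes with a spacing-5 direct repeat in a RefSeq promoter window, RARB in red, CYP26A1 in blue and the others in grey, with no error bars. RARB and CYP26A1 rise to 10.5 and 59.9 FPKM on day 3 and fall by day 5. PANK2 changes little by comparison, and CYB5R2 goes from 35.3 to 23.2 and 20.9 without a call.

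The other genes of the pathway were counted in 7 lists, of which the targets share members such as CYP26A1, DHRS3 and NRIP1 with others. The counts of these lists and of the marker lists stand beside the following shares of all tested genes. By day 3, 8.96% were called higher and 11.6% lower. From day 3 to day 5 the shares were 5.93% and 6.68%, and over the whole course 12.2% and 14.7%. Of the synthesis and retinol handling genes, 0 rose and 6 fell of 14 tested by day 3, with a median change of -0.42 on log2 of FPKM plus 1 (all tested genes, 0.03). LRAT, which esterifies retinol for storage, fell from 11.4 to 0.717, and DHRS3, which reduces retinaldehyde back to retinol, from 18.4 to 2.04. The retinaldehyde dehydrogenase genes ALDH1A1 and ALDH1A3, whose enzymes make retinoic acid, fell from 0.549 to 0.134 and from 1.67 to 0.399. Both then rose by day 5, to 5.25 and 3.19, among 3 higher and 2 lower genes of 15 tested. One of those lower was RBP7, a cellular retinol binding protein gene (3.82 to 0.641). ALDH1A2, the main embryonic retinoic acid-making enzyme gene, stayed at 0.0910, 0.287 and 0.160 without a call. Over the whole course 2 genes of this list were higher and 5 lower of 14 tested.

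Among the degradation genes, CYP26C1 went with CYP26A1, from 1.74 to 77.5 on day 3 and 5.34 on day 5, and CYP26B1 was at most at 0.152 and not tested. Both tested genes were called higher on day 3 and lower on day 5 than on day 3. Day 3 was thus called above both flanking days for RARB, CYP26A1 and CYP26C1. For STRA6 and CRABP2 the step from day 3 to day 5 was not called, and day 5 was called above day 0. Median changes of the 2 tested degradation genes were 3.16 and -3.67 in the first and second step, and over the whole course CYP26C1 was called higher and CYP26A1 lower.

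Textbook retinoic acid targets went both ways. By day 3, 7 rose and 3 fell of 15 tested, with a median of 0.84 (all tested genes, 0.03). The homeobox gene MEIS2 rose from 0.211 to 37.2, and NRIP1, a ligand-dependent corepressor, from 1.58 to 7.29 and on to 23.4 on day 5. RARRES2, a retinoid-responsive gene that encodes the chemoattractant chemerin, fell from 286 to 13.7 and then to 2.05. From day 3 to day 5, 6 rose and 4 fell of 19 tested, with a median of 0.21, and over the whole course 10 rose and 3 fell of 19. The homeobox genes HOXB1 and HOXB2 were listed at 0 on day 0 and called higher on day 5, at 1.04 and 0.687 (named after their values were seen).

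Corepressors hold unliganded receptors inactive, and coactivators join receptors that have bound their ligand. Of 10 tested corepressors, 4 rose by day 3 and 0 fell (median 0.34), and from day 3 to day 5, 1 rose and 3 fell (median -0.24). TBL1X, a subunit of the NCOR complex, went from 9.54 to 23.5 and 14.4, and ZNF423, a zinc finger cofactor of RARs, from 13.1 to 30.5 and 15.5, both with a day 3 high and both steps called. LCOR, a ligand-dependent corepressor gene, rose from 1.82 to 3.79 by day 3. Of 10 tested coactivators, 2 rose by day 3, the acetyltransferase gene KAT2B (0.323 to 1.41) and NCOA3 (5.83 to 9.98), and 0 fell (median 0.22). From day 3 to day 5, 1 rose, KAT2B again (to 3.60), and 0 fell (median -0.13). From day 0 to day 5, 1 rose and 1 fell, the latter ACTN4 (90.6 to 54.0).

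Receptors that share RXR as a partner counted 1 higher, the thyroid hormone receptor gene THRA (4.90 to 10.5), and 2 lower of 9 tested by day 3 (median -0.27). The lower ones were THRB (0.480 to 0.0317) and the pregnane X receptor gene NR1I2 (0.716 to 0.164). From day 3 to day 5, 0 of 8 were called (median -0.04). Orphan receptors of related repeats counted 2 higher and 2 lower of 9 by day 3 (median 0.16), and 2 higher and 2 lower of 8 in the next step (median 0.14). The COUP-TF genes NR2F1 and NR2F2, known as repressors at retinoid response elements, rose from 0.234 to 3.89 and 74.8 and from 0.161 to 5.22 and 39.0. Both steps of both genes were called. RORB and NR5A2 fell from 1.81 to 0.181 and from 1.80 to 0.0257 by day 3. NR2F6 went from 117 to 84.3 without a call and fell to 48.3 by day 5. Where a count of calls in these lists is 0 (Cuffdiff, deposited q), the count at an unadjusted deposited p below 0.05 was also 0, except for 1 gene each: ALDH1A2 (higher) and ACTN4 (lower) from day 0 to day 3, and PPARG, an RXR partner (higher), from day 0 to day 5. Among the genes with the spacing-5 repeat CYB5R2 was such a case (lower on day 3), and among the 9 members there was none. With p from the test statistic under a normal distribution ACTN4 was the 1 exception.

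**Figure D5:**
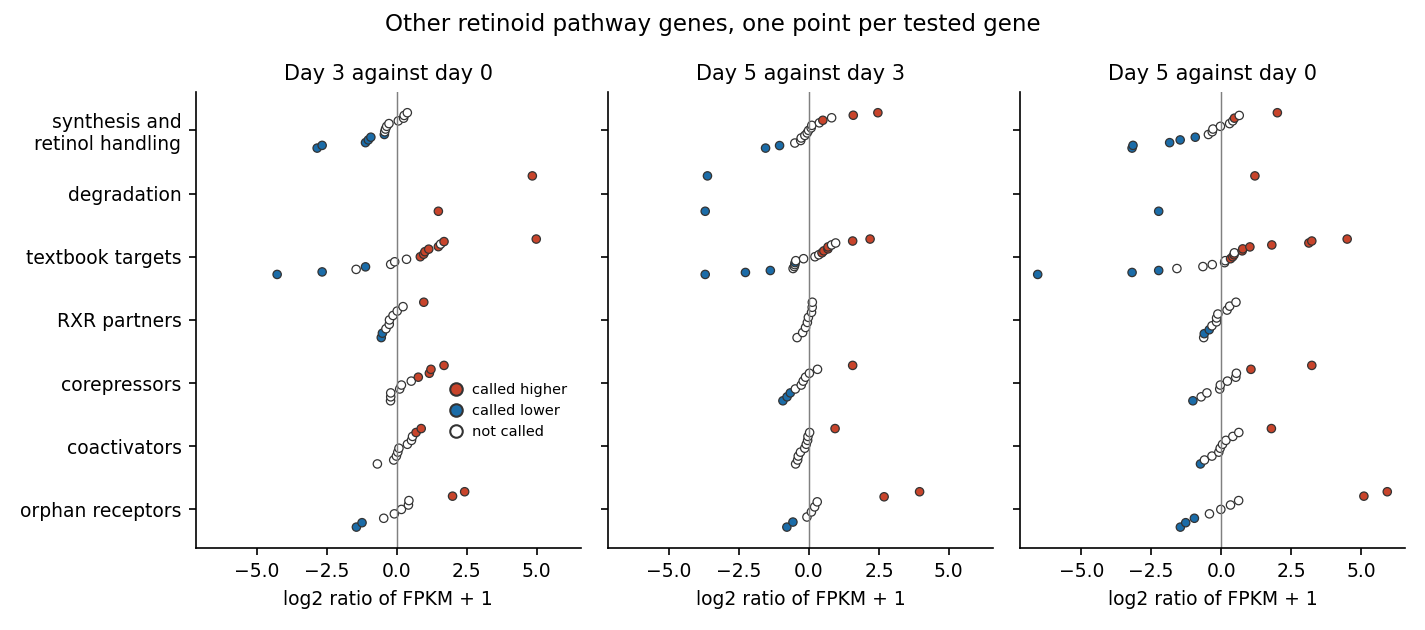
Change on log2 of group FPKM plus 1 for each tested gene of the 7 pathway lists in the 3 comparisons, red for called higher, blue for called lower and white for not called, with no error bars; genes are spread vertically within a list to be seen. Both tested degradation genes lie right of 0 to day 3 and left of it to day 5, and NR2F1 and NR2F2 are the rightmost orphan receptors.

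The labelled stages were checked against 9 marker lists of 7 genes each. Summed FPKM of the stem cell markers was 2420 on day 0, 1087 on day 3 and 616 on day 5, that of the neural plate border markers 2.14, 20.5 and 184, and that of the neural crest markers 31.0, 18.6 and 134. Of the 7 stem cell markers 5 were called lower on day 5 than on day 0, with POU5F1 going from 1087 to 9.40, NANOG from 40.8 to 0.615 and TDGF1 from 345 to 0.389. The other two, LIN28A (419 on day 5) and SOX2 (129), were not called over that span and make up most of the day 5 sum. Of the neural plate border markers, all 7 were called higher by day 3, and 6 were called higher from day 3 to day 5. The exception was GBX2 (0.635, 8.22 and 0.560), called lower from day 3 to day 5. It held 8.22 of the day 3 sum and was not called over the whole course. All 7 neural crest markers were at an FPKM of at least 1 on day 5, and FOXD3 and TFAP2B were below it on day 3. From day 0 to day 5, 5 were called higher. FOXD3 (17.9 on day 0 and 15.4 on day 5) and ETS1 (7.27 and 6.14) were not called over that span. From day 3 to day 5, 6 were called higher and SOX10 (3.87 to 6.33) was not called. NR2F1 alone made up 74.8 of the day 5 sum. Markers of neurons had their highest sum on day 3, as RARB did, at 214, 328 and 148, with 3, 5 and 3 of 7 at an FPKM of at least 1 and 0 of 7 listed at 0. Most of that sum is TUBB3, whose change to day 3 was not called. STMN2 (2.60, 27.4 and 7.94) and DCX (0.483, 1.75 and 0.852) were called higher on day 3 and lower again on day 5. RARB had this order of calls. It was not particular to neuron markers. The neural plate border marker GBX2 and the mesendoderm marker T (0.134, 0.777 and 0.0566) had it as well. ELAVL3 (0.580, 1.79 and 0.931) was called higher on day 3, and RBFOX3 (7.93, 4.04 and 1.39) was called lower in both steps. NEUROG2 and ELAVL4 stayed below 1, NEUROG2 without a call. ELAVL4 (0.198, 0.249 and 0.883) was highest on day 5 and called higher there than on day 0 and day 3, unlike RARB. Markers of fibroblasts summed to 195, 45.3 and 52.5, mostly THY1 on day 0 (158). From day 0 to day 5, 4 of the 6 tested were called higher, among them COL3A1 (0.0991 to 2.38) and PDGFRB (1.78 to 8.93), and 2 lower, THY1 and COL1A1. From day 3 to day 5, COL1A1 (7.74 to 19.8), COL3A1, PDGFRA and PDGFRB were called higher, and THY1 (31.5 to 19.3) was not called. Markers of nonneural ectoderm summed to 150.1, 6.09 and 6.90, nearly all of it EPCAM on day 0. Of these 7 markers, 1 was at an FPKM of at least 1 on day 0, 2 on day 3 and 4 on day 5. From day 0 to day 5, DLX5 (0.0966 to 2.04) and GATA2 (0.0787 to 1.55) were called higher and EPCAM lower. GATA3 (0.108 to 1.84) and GATA2 were called higher from day 3 to day 5, and EPCAM lower. GATA3 was not called over the whole course. Mesendoderm markers summed to 5.67, 4.12 and 2.73, trophoblast markers to 11.5, 5.82 and 10.3, and endothelial and blood markers to 34.8, 24.9 and 18.1. The part of other cell types in the changes of the retinoid genes was not tested.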

How the data were processed

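Poly-adenylated RNA of 6 libraries (2 per group) was sequenced. Alignment and testing tools named in the submitters' processing notes are Cuffdiff 2.1.1 and TopHat2 2.0.10, with the build hg19; no annotation is named. Per the file headers, the deposited table of 69852 rows gives for each gene and comparison the authors' FPKM of each group, a p-value, a q-value and the test statistic, a score. The q equals the Benjamini-Hochberg adjustment over all 48572 tested rows to within 5.25e-07, and the smallest p, 5e-05, is shared by 4078 rows. Start positions were taken as counted from 0 and printed from 1, since that matched RefSeq gene lengths for 1901 genes against 253. No depth and no value per library were used, so precision rests on the authors' test.

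Folds are ratios of group FPKM, and the implied standard error is the log2 ratio over the test statistic. Python 3.11.15, pandas 2.3.3, NumPy 2.4.6, SciPy 1.17.1 and Matplotlib 3.10.9 were used. The adjustment, pattern distance and repeat search were tested on simulated data. All 9 members are named; lists with over 4 tested genes give up to 5 called genes with the largest change, plus genes that make a count clear. Some list genes enter the counts and are not reported here by name. The alternatives were q below 0.01, p from the test statistic, adjustment within a comparison, an FPKM of at least 1, a fold of at least 2, pseudocounts of 1 and 0.1, rescaling, and fewer core sites. Members and lists were chosen with earlier results of these data known. Protein sequences were not used here.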

Additional observations from a re-analysis of the deposited data

How the results depend on the processing

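Counts of called members in each comparison, and of distinct list genes called in either direction, stayed within 1.5 times the reported ones under all but 1 alternative. Split by direction, list genes called lower from day 3 to day 5 went from 12 to 7 with q below 0.01 and to 7 with a fold of at least 2, and those called higher from day 0 to day 5 from 17 to 11 at an FPKM of at least 1. With p recomputed from the test statistic under a normal distribution, 3 members (RARB, CRABP2 and STRA6) in place of 5 were called higher on day 3 than on day 0. RXRA lost its call there and, at a fold just below 2, under the demand for a fold of at least 2. RXRG lost both calls with that p and with q below 0.01, and could not be judged at an FPKM of at least 1. Of 240 values of single members under alternatives, 233 kept direction and call, 6 lost a call and 1 turned sign: RARG between day 0 and day 3, not called, was 0.018 on log2 after scaling to sums without short RNAs. The log2 ratio of those sums was -0.17 between day 0 and day 5, so this scaling raises all changes over the whole course by that size. With AGGTCA and GGTTCA as the core sites, 8 windows held a repeat with spacing 1, 2 with spacing 2 and 10 with spacing 5, and the RARB and CYP26A1 repeats, which contain AGTTCA, were not among them. No paired analysis was possible because the table gives each group as 1 combined value, and for the same reason no replicate could be left out. The unknown depth limits values below an FPKM of 1 most, RXRG and the day 0 level of RARB among them.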
